A study of Homo sapiens with 3 samples.

Results

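The forms of LOXL2 named WT and delta72 were compared with each other on the arrays of the cells that had received them. These are 2 of the 3 Affymetrix expression arrays of the study, and they were chosen by title. All 3 arrays carried RNA of KYSE150, an established human oesophageal squamous carcinoma line, taken 48 h after transfection. One culture had received the empty vector (control), another pcDNA3.1 with LOXL2 WT, and the last pcDNA3.1 with LOXL2 delta72, whose difference from WT is not described in the labels. Plasmids of the pcDNA3.1 type drive the inserted gene from a strong viral promoter, and the cells kept their own LOXL2 gene. How many cells took up a plasmid was not measured on the arrays. Fewer cells with a transcript and less transcript per cell cannot be told apart in such bulk RNA.

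Each condition had 1 array. The comparison therefore has no replicate spread and no test, and "higher" and "lower" are statements on single arrays. Differences are on the log2 scale as delta72 minus WT. The control array does not enter the difference and its level is given beside each gene for orientation. A gene was read from its brightest probe set, taken by the mean over the 3 arrays among probe sets paired with 1 gene, and was kept where that mean was at or above log2 5.27, the 40th percentile of all probe sets other than Affymetrix controls. Of 18132 genes with such a probe set, 12232 passed (67.5%), and 7163 of these had more than 1 probe set past the same level. The SD or the range over a gene's probe sets is given as its probe error. Pooled over genes it was 0.113, and it holds no error of culture, labelling or hybridisation.

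LOXL2, lysyl oxidase like 2, is a copper-dependent amine oxidase that is made in the endoplasmic reticulum and secreted, where it crosslinks collagen and elastin. It has also been described inside cells. Cells that make much secreted protein depend on the chaperones of the endoplasmic reticulum (ER), and an overload of unfolded protein starts the unfolded protein response. Its sensors raise chaperones and degradation factors through ATF6 and XBP1, and slow translation while raising ATF4 and DDIT3, a branch shared with the integrated stress response. Low oxygen acts through hypoxia-inducible factors (HIF), whose alpha subunits are degraded after hydroxylation by oxygen-dependent enzymes and which, when stable, raise genes of glycolysis, mitophagy and matrix modification. LOXL2 itself is known as a HIF target.

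The transfected gene read the same on both arrays. The brightest LOXL2 probe set was at 7.46 with the empty vector, 14.05 with WT and 14.06 with delta72, a difference of 0.01. A dimmer probe set read 10.22 on both LOXL2 arrays and another read 8.07 with WT and 8.02 with delta72. The remaining probe set, which was not raised by either plasmid, read 8.32 with WT and 8.66 with delta72. Over the 4 probe sets the difference ran from -0.06 to 0.34. Probe positions are not used here, so these values do not show which form a cell carried.

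The other lysyl oxidases were close on both arrays, with the exception of LOXL4. LOXL4 read 6.95 on the control array, 6.33 with WT and 5.97 with delta72, a difference of -0.36, and its other probe set differed by -0.07. LOXL1 differed by -0.09, LOX by -0.08 and LOXL3 by 0.04. In the wider list of lysyl oxidases and collagen-modifying enzymes, 7 of the 11 genes past the level filter were higher with delta72 and 4 lower, and LOXL4 was the one that differed by at least 0.32, a size that 1.55% of all genes passed upwards and 0.981% downwards.

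The 2 arrays were alike on most genes. Across probe sets their values correlated with Pearson's r of 0.998, a description across probe sets of 2 libraries. The median difference over the 12232 genes was 0.00129 with an SD of 0.132, and the middle 95% lay between -0.25 and 0.28. Higher with delta72 by at least 0.32, the smallest size counted here, were 190 genes, or 1.55%, and lower by as much were 120, or 0.981%. The upward excess was smaller after a lowess correction against level, with 166 higher and 143 lower. At 1.5-fold the counts were 22 higher (0.18%) and 5 lower (0.0409%). At 2-fold 2 genes were higher (0.0164%), ANKRD37 and HILPDA, and 0 were lower (0%). The next gene below the 2-fold limit was EHF at 0.92. At the 1.5-fold limit DNAI1 at 0.59 lay just inside and CEL at 0.58 just outside.

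The spread of the differences was wider among dim genes, and this bears on which names can be read closely. Among genes with a mean level between 5.27 and 6 the SD was 0.171, and between 10 and 15 it was 0.104. In the dimmest class 3.9% of 1691 genes were higher by at least 0.32 and 2.48% lower. In the brightest class 0.947% of 1900 were higher and 0.211% lower. All 5 genes at least 1.5-fold lower had a mean under 7, against 11 of the 22 at least 1.5-fold higher.

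**Figure D1:**
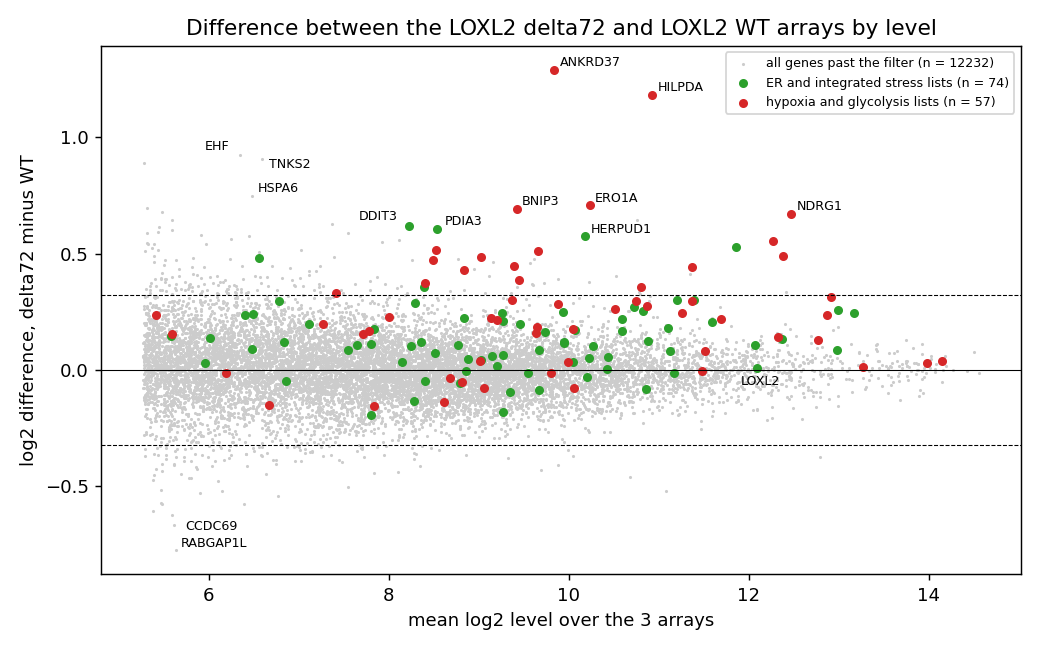
Log2 difference between the delta72 and WT arrays (vertical) against the mean log2 level over the 3 arrays (horizontal) for each gene past the level filter, with genes of the hypoxia and glycolysis lists in red, the remaining genes of the ER and integrated stress lists in green and dashed lines at 0.32 either way. The cloud widens towards dim genes, and the red points ANKRD37 at 1.29 and HILPDA at 1.18 lie above all other genes, while LOXL2 lies at 0.01.

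Technical readings differed by amounts that are small beside the leading genes and not small beside the list medians. Background probe sets with 18 to 25 G and C bases were higher on the delta72 array by 0.11 in the median of 8, from 0.09 to 0.15, and those with 3 to 17 by 0.02 in the median of 15. Hybridisation spikes differed by -0.11 in the median of 18 probe sets and spiked poly-A transcripts by 0.05 in the median of 24. The distance between 3-prime and 5-prime actin probe sets, a sign of RNA quality, was 1.46 with WT and 1.32 with delta72. All 12 squamous and epithelial marker genes with a probe set of their own passed the filter, with median levels of 9.71 with WT and 9.69 with delta72, and differences from -0.33 for DSC3 to 0.21 for SOX2. Of the markers of other cells, 1 of 7 fibroblast genes, 3 of 6 endothelial genes and 0 of 6 columnar epithelial genes passed it. Of the 6 leukocyte genes 3 passed, and CD68 was at 8.44 with WT and 8.65 with delta72. The part of these readings in the results was not tested.

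The first group of lists was that of the HIF response, which holds ANKRD37 and HILPDA, the 2 highest genes of the comparison. All gene lists were written with earlier results of these data known, so the shares of their members are descriptions and no test. On 3 lists, for the HIF pathway with its feedback genes, for HIF targets outside glycolysis, and for glycolysis and glucose uptake, 57 of 64 genes passed the level filter. Of these, 47 were higher with delta72 and 10 lower, against 50.4% higher and 49.3% lower over all genes. Higher by at least 0.32 were 18 (31.6%, against 1.55% of all genes), and lower by as much were 0 (0.981% of all genes). Of the 22 genes at least 1.5-fold higher, 5 were on these lists. The median difference was 0.23. Where a gene had several probe sets, as 42 did, 27 had every probe set higher and 2 every probe set lower, where the counts over all 7163 such genes were 1665 and 1823.

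ANKRD37, an ankyrin repeat gene known as a direct HIF target, read 9.98 on the control array, 9.12 with WT and 10.41 with delta72. The difference of 1.29, or 2.45-fold, is that of its 1 probe set past the level filter. Another probe set, below the filter, read 4.99, 4.31 and 5.33, a difference of 1.02. HILPDA, which encodes a lipid droplet protein that inhibits triglyceride breakdown, read 11.25, 10.17 and 11.36 on the control, WT and delta72 arrays, a difference of 1.18 (SD 0.04 over 2 probe sets). In both genes WT was the low array and delta72 was above control.

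The promoters of 5 of the leading genes are shown because each holds ACGTG, the core to which HIF binds, within the 250 bases before the gene's start. Sequences are from RefSeq on GRCh38.p14, each 100 bases long and written 5′ to 3′ along the gene's strand, with the motif in capitals in either orientation. CACGTG holds it on both strands.
ANKRD37, chr4:185396638-185396737, plus strand: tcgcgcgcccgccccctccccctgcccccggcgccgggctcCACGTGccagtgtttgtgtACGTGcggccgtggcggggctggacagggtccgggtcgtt
ERO1A, chr14:52695621-52695720, minus strand: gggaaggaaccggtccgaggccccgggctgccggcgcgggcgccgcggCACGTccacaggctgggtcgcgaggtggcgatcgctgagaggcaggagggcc
BNIP3, chr10:131982005-131982104, minus strand: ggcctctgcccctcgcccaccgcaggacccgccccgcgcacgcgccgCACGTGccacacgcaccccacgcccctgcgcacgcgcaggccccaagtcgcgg
ENO2, chr12:6914414-6914513, plus strand: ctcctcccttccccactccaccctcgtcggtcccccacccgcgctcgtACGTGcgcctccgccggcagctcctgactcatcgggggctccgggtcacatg
HK2, chr2:74834027-74834126, plus strand: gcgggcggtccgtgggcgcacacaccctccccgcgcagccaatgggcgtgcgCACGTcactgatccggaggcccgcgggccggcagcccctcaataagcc
Over all genes past the filter with a promoter window, 2265 of 9954 (22.8%) held ACGTG on either strand. The motif is short and a match is a description of letters. It stood in 6 of 12 windows of the HIF pathway list, in 12 of 19 of the HIF targets (63.2%) and in 8 of 20 of the glycolysis genes (40%). It was about as frequent in some ER lists, at 9 of 21 windows of the chaperones (42.9%) and 9 of 18 of the degradation genes (50%). It was less frequent in the ER stress sensors, at 4 of 13 (30.8%), and the integrated stress genes, at 2 of 16 (12.5%). The 3 hypoxia and glycolysis lists together had 26 of 51 (51%), and the 4 ER and integrated stress lists 24 of 68 (35.3%). Genes with a match and genes with none had median differences of 0.12 and 0.11 in the pathway list, 0.27 and 0.26 among the HIF targets and 0.38 and 0.16 among the glycolysis genes, while over all genes past the filter both medians were 0.00. Among all genes higher by at least 0.32, 42 of 146 windows (28.8%) held it, and among those lower by at least 0.32 17 of 92 (18.5%). The related core GCGTG, also searched on both strands, stood in 4438 of 9954 windows past the filter (44.6%). Among the genes higher by at least 0.32 it was less frequent, at 49 of 146 (33.6%), as among the lower ones, at 34 of 92 (37%). By list it stood in 13 of 19 windows of the HIF targets (68.4%), 5 of 12 of the HIF pathway list (41.7%) and 7 of 20 of the glycolysis genes (35%). Of the ER chaperone windows 16 of 21 (76.2%) held it. No window was matched for HILPDA, NDRG1, BNIP3L and VEGFA.

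Of the 14 genes of the pathway and feedback list, 8 were higher with delta72 and 6 lower, with a median of 0.12 (0.20 without the level filter), and 4 (28.6%) were higher by at least 0.32. HIF1A, the oxygen-regulated subunit, read 11.59, 11.43 and 11.42 on the control, WT and delta72 arrays, a difference of -0.01, with 8 probe sets from -0.01 to 0.24. EPAS1, which encodes the alternative subunit HIF-2 alpha, differed by 0.22, with its other probe set at 0.02, and ARNT, the shared partner, by -0.15, with 5 probe sets from -0.15 to 0.27. Of the genes that switch HIF off, the prolyl hydroxylase gene EGLN1 differed by 0.04, the asparaginyl hydroxylase gene HIF1AN by -0.16, with 3 probe sets from -0.35 to -0.16, and VHL, the recognition subunit of the ubiquitin ligase, by -0.03. Transcript levels do not report HIF protein.

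Members past 0.32 were ANKRD37, KDM3A, BHLHE40 and ANKZF1. KDM3A, a histone demethylase that HIF raises, read 9.39, 9.28 and 9.67 on the control, WT and delta72 arrays, and its 3 probe sets differed by 0.38 to 0.42. BHLHE40, a transcriptional repressor that HIF raises, read 8.76, 8.12 and 8.59, a difference of 0.47 on 1 probe set. ANKZF1 differed by 0.43 on its brightest probe set and by -0.18 on the other, so its direction rests on the choice of probe set. MXI1, a MYC antagonist, differed by 0.27 on its brightest probe set, with a median of 0.15 over its 5. Other feedback genes of the list were smaller or lower. The histone demethylase gene KDM4B differed by 0.20, KDM4C by -0.05 with 5 probe sets from -0.15 to 0.37, and CITED2, which competes with HIF for its coactivator, by -0.14 with its other probe set at 0.13.

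Among HIF targets outside glycolysis, 20 of 23 were higher with delta72 and 3 lower, with a median of 0.28, and 9 (39.1%) were higher by at least 0.32. ERO1A, the oxidase that supplies disulphide bonds in the ER, read 10.26, 9.87 and 10.57 on the control, WT and delta72 arrays, and its 2 probe sets differed by 0.54 and 0.71. BNIP3, a receptor for mitophagy, read 9.38, 9.10 and 9.79, with probe sets at 0.35 and 0.69. NDRG1, a stress-responsive gene of epithelial differentiation, read 12.54, 12.10 and 12.77. Its 6 probe sets differed by 0.67 to 0.94, and the value used, from the brightest, is the smallest of them. In all 3 genes the delta72 array was highest and the WT array lowest.

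ADM, the gene of the vasodilator peptide adrenomedullin, read 12.60, 11.83 and 12.38 on the control, WT and delta72 arrays, and 3 probe sets differed by 0.52 to 0.73. DDIT4, an inhibitor of mTORC1 signalling, read 12.66, 11.996 and 12.49, a difference of 0.49. In these genes, as in BHLHE40, the delta72 array lay between WT and control. P4HA1, a collagen prolyl 4-hydroxylase subunit, read 9.38, 9.17 and 9.62, a difference of 0.45, and BNIP3L, the second mitophagy receptor of this family, read 10.73, 10.66 and 11.02, with 6 probe sets from 0.25 to 0.38. STC2, a secreted glycoprotein gene that also answers the integrated stress response, differed by 0.33 on its brightest probe set, with a median of 0.17 over 3. The sterol regulator INSIG2 and WSB1 followed at 0.30 each, the latter with 6 probe sets from -0.08 to 0.48, the collagen prolyl hydroxylase P4HA2 at 0.28, and the collagen lysyl hydroxylases PLOD1 and PLOD2 at 0.23 and 0.19.

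Not all HIF targets differed. VEGFA, the angiogenic growth factor, read 9.74, 9.84 and 9.82 on the control, WT and delta72 arrays, a difference of -0.02, although its 9 probe sets ran from -0.02 to 0.45 with a median of 0.10. ANGPTL4, a lipase inhibitor, differed by -0.01, the adenylate kinase gene AK4 by 0.03 and SAP30, a subunit of a histone deacetylase complex, by -0.08 with a median of 0.14 over its 3 probe sets.

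**Figure D2:**
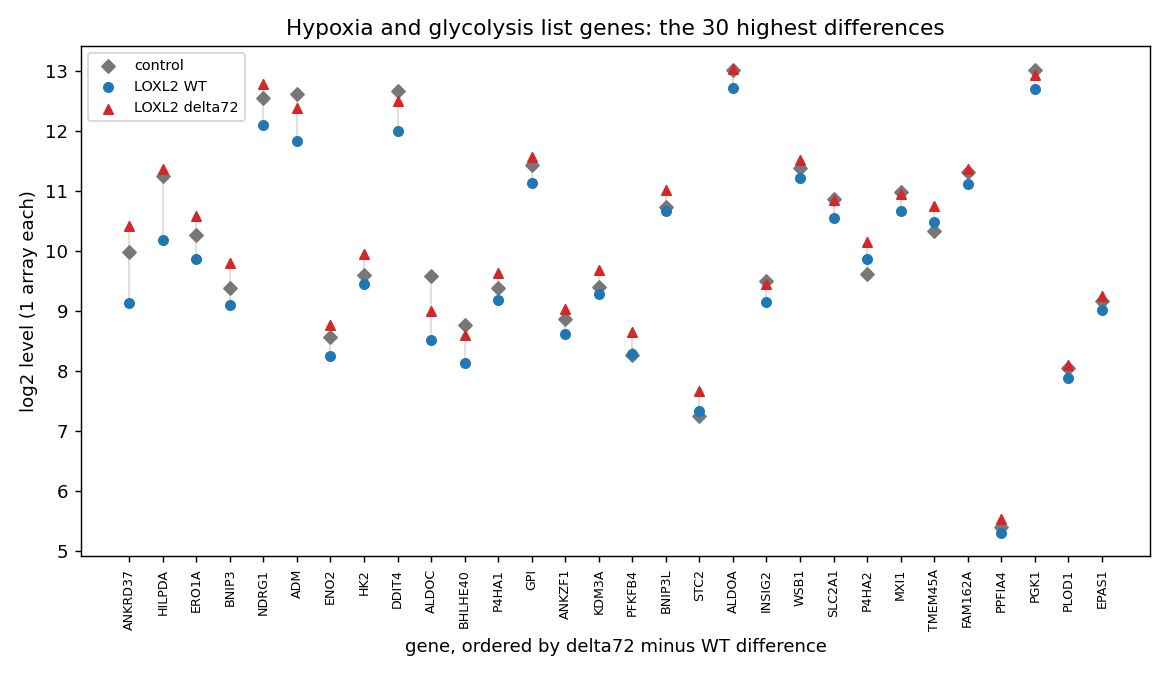
Log2 level (vertical, 1 array per point) of the 30 genes of the hypoxia and glycolysis lists with the highest delta72 minus WT difference, in that order from left to right, for the control (grey diamonds), WT (blue circles) and delta72 (red triangles) arrays. By this choice of genes the WT point lies below the delta72 point in each, from 9.12 against 10.41 in ANKRD37 to 9.02 against 9.24 in EPAS1. Of all 57 genes of these lists, 47 were higher with delta72 and 10 lower.

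Glycolysis genes were higher with delta72 in 19 of 20, with a median of 0.20, and 5 (25%) were higher by at least 0.32. HK2, the inducible hexokinase that traps glucose, read 9.60, 9.44 and 9.95 on the control, WT and delta72 arrays, with probe sets at 0.28 and 0.51. ENO2, an enolase isoform, read 8.57, 8.24 and 8.76, a difference of 0.51. ALDOC, an aldolase isoform, read 9.58, 8.51 and 8.99, with 5 probe sets from 0.38 to 0.49, so that delta72 stayed well below control. GPI, glucose phosphate isomerase, read 11.42, 11.12 and 11.57, a difference of 0.44. PFKFB4, which sets the activator of phosphofructokinase, differed by 0.37 on one probe set and by 0.03 on the other.

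Smaller differences were read for other members of the pathway. The aldolase gene ALDOA differed by 0.31, the glucose transporter gene SLC2A1 by 0.30, and PGK1, phosphoglycerate kinase, by 0.24, with all 9 probe sets from 0.20 to 0.27. PDK1, a pyruvate dehydrogenase kinase gene, differed by 0.21 and ENO1 by 0.14. GAPDH at 0.04, LDHA, the lactate dehydrogenase subunit, at 0.03 and PGAM1 at 0.01 differed by less than the pooled probe error of 0.113. PKM differed by -0.08 on its brightest probe set and had a median of 0.04 over 4.

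The second group of lists was that of the ER and the integrated stress response. On 4 lists, for ER chaperones and folding enzymes, ER-associated degradation, ER stress sensors, and integrated stress response genes, 76 of 81 genes passed the level filter. With delta72, 63 were higher (82.9%, against 50.4% of all genes) and 13 lower, with a median difference of 0.12. Higher by at least 0.32 were 8 (10.5%, against 1.55% of all genes) and lower by as much were 0. Several probe sets were available for 52, of which 31 had every probe set higher and 4 every probe set lower. Over all 7163 such genes the counts were 1665 and 1823. The lists of HIF targets and of integrated stress genes share DDIT4 and STC2. The median of 0.12 is about that of the GC-rich background probe sets, 0.11, and the part of that offset in the lists was not tested.

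Of the ER chaperones and folding enzymes 22 of 23 were higher with delta72 (95.7%, against 50.4% of all genes). Higher by at least 0.32 were 2 (8.7%, against 1.55% of all genes). The list median of 0.12 is about that of the GC-rich background probe sets, 0.11, and the part of that offset was not tested. HSPA5, the main ER chaperone (BiP), read 12.28, 13.22 and 13.47 on the control, WT and delta72 arrays, a difference of 0.26. Its 6 probe sets ran from 0.26 to 0.83 with a median of 0.79, so the brightest gave the smallest value. HSP90B1, the ER member of the HSP90 family, read 12.90, 13.18 and 13.43, with 7 probe sets from 0.14 to 0.56. Both genes were above control with either form, and highest with delta72.

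Disulphide isomerases differed in size among themselves. PDIA4 read 11.48, 11.78 and 12.31 on the control, WT and delta72 arrays, and its 3 probe sets differed by 0.47 to 0.53. PDIA3 read 8.59, 8.21 and 8.82, with probe sets at 0.15 and 0.61. Its brightest probe set was lower with WT than on the control array, and the other was higher, at 6.98, 7.26 and 7.41. PDIA6 differed by 0.21 and PDIA5 by 0.12. P4HB, both a disulphide isomerase and a subunit of collagen prolyl hydroxylase, differed by 0.30, with 6 probe sets from 0.15 to 0.30. The secreted folding factor MANF read 10.80, 11.25 and 11.55, SDF2L1, a partner of ER chaperone complexes, 9.50, 10.04 and 10.29, and the chaperone HYOU1 8.81, 9.40 and 9.61. HYOU1 differed by 0.21 on its brightest probe set and by as little as -0.12 on another of its 6. DNAJC10 was the member that was lower, at -0.10.

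In ER-associated degradation 16 of 21 genes were higher (76.2%, against 50.4% of all genes), with a median of 0.07. HERPUD1, which organises the degradation complex in the ER membrane, read 9.40, 10.28 and 10.86 on the control, WT and delta72 arrays, and its 3 probe sets differed by 0.57 to 0.61. SYVN1, the ubiquitin ligase of that complex, differed by 0.22 and DERL3 by 0.23, while EDEM3, a mannosidase-like factor, differed by -0.18. HERPUD1 was the 1 member that differed by at least 0.32.

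Promoters of 5 ER stress genes are shown because they hold the elements to which ATF6 with NF-Y and XBP1 bind, ERSE, which is CCAAT followed after 9 bases by CCACG, and ERSE-II, which is ATTGG followed after 1 base by CCACG, searched on both strands in the 250 bases before the start. The capitals mark the element, the sequences are from RefSeq on GRCh38.p14, and each is 100 bases long along the gene's strand.
HSPA5, chr9:125241351-125241450, minus strand: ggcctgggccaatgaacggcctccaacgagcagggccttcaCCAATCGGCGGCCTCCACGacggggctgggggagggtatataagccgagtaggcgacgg
HSP90B1, chr12:103930175-103930274, plus strand: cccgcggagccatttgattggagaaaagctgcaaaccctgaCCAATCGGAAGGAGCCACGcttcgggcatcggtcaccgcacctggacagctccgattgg
HERPUD1, chr16:56931980-56932079, plus strand: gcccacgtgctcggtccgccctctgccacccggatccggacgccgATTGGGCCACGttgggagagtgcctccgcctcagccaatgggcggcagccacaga
SDF2L1, chr22:21642069-21642168, plus strand: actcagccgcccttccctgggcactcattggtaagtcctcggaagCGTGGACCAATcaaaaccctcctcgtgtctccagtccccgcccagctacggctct
HYOU1, chr11:119057336-119057435, minus strand: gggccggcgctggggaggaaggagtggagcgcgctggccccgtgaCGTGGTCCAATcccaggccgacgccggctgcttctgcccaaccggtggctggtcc
The ERSE stood in 14 of 9954 windows of genes past the filter (0.141%) and in 6 of 21 windows of the ER chaperone list. ERSE-II stood in 11 of 9954 (0.111%), 2 of them among the 21 chaperone windows and 1 among the 18 windows of the degradation list. With XBP1 on the list of sensors, 10 genes of the ER lists held one or the other, and all 10 were higher with delta72 than with WT, as were 63 of the 76 genes of the 4 lists. Their differences ran from 0.04 for XBP1 to 0.57 for HERPUD1. In the chaperone list the genes with an ERSE had a lower median difference, 0.10, than those with none, 0.13, and those with an ERSE-II a higher one, 0.23 against 0.11.

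The sensors of ER stress differed in both directions. Of 13 genes, 7 were higher with delta72 and 6 lower, with a median of 0.04, and 0 differed by 0.32. ATF6, the membrane-bound transcription factor, differed by -0.19, with both probe sets lower. EIF2AK3, the kinase PERK, differed by -0.13 and had a median of -0.01 over 3 probe sets. XBP1, whose messenger RNA is spliced by the sensor IRE1, differed by 0.04, and these probe sets were not used to tell its spliced form apart.

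Of 19 integrated stress response genes, 18 were higher with delta72 (94.7%, against 50.4% of all genes), with a median of 0.24. Higher by at least 0.32 were 5 (26.3%, against 1.55% of all genes). Among these are DDIT4 and STC2, which were also counted with the HIF targets. DDIT3, the transcription factor CHOP that is induced late in this response, read 7.33, 8.36 and 8.98 on the control, WT and delta72 arrays, with probe sets at 0.62 and 0.80. PPP1R15A, which restores translation as the feedback of the pathway, read 8.08, 8.37 and 8.72, a difference of 0.36. VLDLR, a lipoprotein receptor raised by ATF4, read 6.75, 6.22 and 6.70, a difference of 0.48. The order of the arrays was not shared: DDIT3 and PPP1R15A stood above control with both forms, whereas VLDLR was low with WT alone.

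ATF4, the factor at the head of this response, read 11.99, 12.14 and 12.14, a difference of 0.01, but it is set mainly by translation, which an array does not measure. Other members followed with smaller differences. SESN2 differed by 0.30, the death receptor gene TNFRSF10B by 0.27, GADD45A by 0.25, TRIB3 by 0.24, with its other probe set at 0.00, and ATF3 by 0.22. ATF5 differed by 0.24 on its brightest probe set and by -0.11 on the other one past the filter, so its direction rests on the choice of probe set. ASNS, asparagine synthetase, differed by 0.17. The neighbouring list of tRNA synthetases and amino acid supply had a median of 0.04, with 20 of 25 genes higher and 0 different by 0.32.

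**Figure D3:**
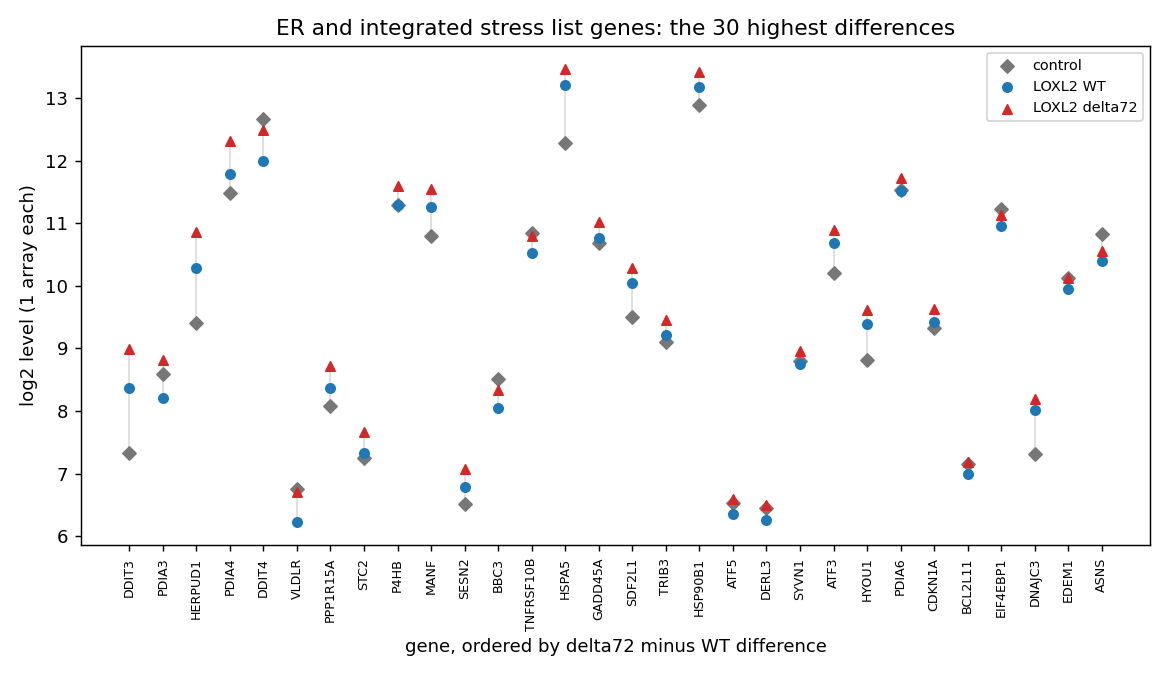
Log2 level (vertical, 1 array per point) of the 30 genes of the ER and integrated stress lists with the highest delta72 minus WT difference, in that order from left to right, for the control (grey diamonds), WT (blue circles) and delta72 (red triangles) arrays. DDIT3 at 7.33, 8.36 and 8.98 and HERPUD1 at 9.40, 10.28 and 10.86 step up from control to WT to delta72, while DDIT4 is lowest with WT.

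More genes of the cytosolic heat shock list were lower than higher. Of 22 genes, 8 were higher with delta72 (36.4%, against 50.4% of all genes) and 14 lower. The median of -0.05 was smaller in size than the pooled probe error of 0.113, and 0 genes were lower by at least 0.32. Several probe sets were available for 14, of which 0 had every probe set higher and 9 had every probe set lower. Over all 7163 such genes the counts were 1665 and 1823. CHORDC1, a co-chaperone of HSP90, read 10.44, 11.13 and 10.90 on the control, WT and delta72 arrays, with 8 probe sets from -0.44 to -0.05. DNAJA1, an HSP40 co-chaperone, differed by -0.17 with a median of -0.25 over 5 probe sets, HSPD1, the mitochondrial chaperonin, by -0.21 and HSPA8, the constitutive HSP70, by -0.16. The exception was HSPA6, a strictly inducible HSP70, which read 5.51, 6.60 and 7.35 and differed by 0.75 on 1 probe set. HSPA1B, the other inducible HSP70 shown, differed by -0.05, and it has near-identical copies that its probes may also read.

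**Figure D4:**
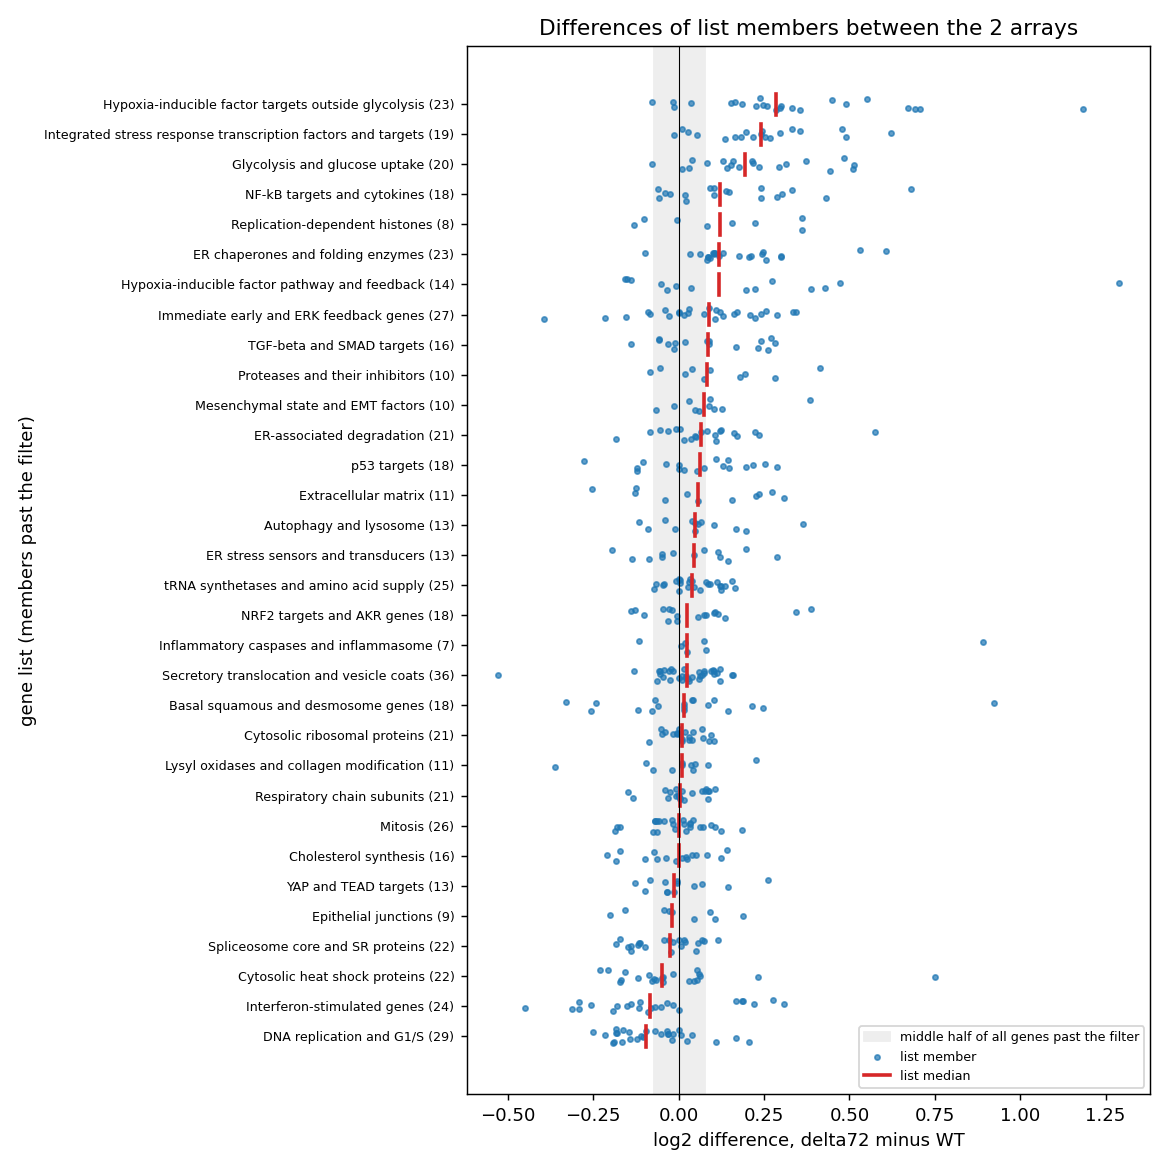
Log2 difference between the delta72 and WT arrays (horizontal) of every member past the level filter (points) for the 32 gene lists (rows), with the median of each list in red and the range between the quartiles of all genes, from -0.07 to 0.08, in grey. The HIF target, integrated stress response and glycolysis lists have medians of 0.28, 0.24 and 0.20 at the top, and the DNA replication list lies lowest at -0.09.

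Inflammatory and early-response genes were higher in part. Of 18 NF-kB targets and cytokines, 14 were higher with delta72 (77.8%, against 50.4% of all genes), with a median of 0.12. Higher by at least 0.32 were 3 (16.7%, against 1.55% of all genes). The median is about that of the GC-rich background probe sets, 0.11, and the part of that offset was not tested. IL24, a cytokine of the IL10 family, read 5.46, 5.15 and 5.83 on the control, WT and delta72 arrays, close to the filter level. CXCL8, the neutrophil chemokine, read 8.72, 8.84 and 9.27, with 3 probe sets from 0.37 to 0.43, and TNFAIP3, a feedback inhibitor of NF-kB, 9.17, 8.85 and 9.18, with probe sets at 0.33 and 0.45. ICAM1 differed by 0.30 and IL1B by 0.29. Of 27 immediate early and ERK feedback genes, 18 were higher (66.7%) and 8 lower, with a median of 0.09. Higher by at least 0.32 were 2 (7.41%) and lower by as much 1, where 0.981% of all genes were lower. IER3 and NR4A1 differed by 0.34 each and JUN by 0.26, while NR4A3 differed by -0.39 and was the one lower by at least 0.32.

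Lists on the lower side had smaller medians. Of 29 DNA replication and G1/S genes, 22 were lower with delta72 and 6 higher (20.7%), where 49.3% of all genes were lower and 50.4% higher. The median was -0.09, and 0 reached 0.32. MCM6, a subunit of the replicative helicase, read 9.002, 8.95 and 8.70 on the control, WT and delta72 arrays, with probe sets at -0.12 and -0.25. MCM10 differed by -0.21, PCNA, the polymerase clamp, by -0.18 and CDC6, which loads the helicase, by -0.18, while POLD1 differed by 0.21. The mitosis list was even, with 13 of 26 higher and a median of 0.00. Of 24 interferon-stimulated genes 17 were lower and 6 higher (25%), with a median of -0.08. Lower by at least 0.32 was 1 of them, where 0.981% of all genes were. The medians of the replication and interferon lists were smaller in size than the pooled probe error of 0.113. RSAD2, the antiviral enzyme viperin, read 6.54, 6.91 and 6.46, with probe sets at -0.45 and -0.90, and SAMD9 differed by -0.31, IFIT3 by -0.29 and PARP9 by -0.29, the last with its other probe set at 0.05, whereas IFI6 differed by 0.31.

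Most other lists lay near the median of all genes. Cholesterol synthesis had 8 of 16 genes higher, respiratory chain subunits 13 of 21, cytosolic ribosomal proteins 14 of 21 and core spliceosome and SR proteins 9 of 22, with medians within 0.03 of 0. Further lists were p53 targets, with 13 of 18 higher, TGF-beta and SMAD targets, with 10 of 16, extracellular matrix genes, with 7 of 11, YAP and TEAD targets, with 4 of 13, and inflammatory caspases, with 6 of 7. The medians of these 5 lists lay between -0.01 for YAP and TEAD targets and 0.08 for TGF-beta and SMAD targets. Epithelial junction genes were 4 higher and 5 lower. Of 18 basal squamous genes 11 were higher, among them EHF, an ETS factor of epithelia. EHF read 7.15, 5.49 and 6.42 on the control, WT and delta72 arrays on its 1 probe set past the filter. DSC3, a desmosomal cadherin, differed by -0.33 on its brightest of 3 probe sets, with another at 0.11, and the basal keratin gene KRT5 by -0.26. Of 10 mesenchymal genes 8 were higher (80%, against 50.4% of all genes), with a median of 0.08. Higher by at least 0.32 was 1 (10%, against 1.55% of all genes). This was VIM, vimentin, at 7.81, 7.59 and 7.98, with probe sets at 0.38 and 0.14.

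A few members past 0.32 stood in several further lists. Of 10 protease and inhibitor genes 8 were higher (80%), of 18 NRF2 targets 9 (50%) and of 13 autophagy and lysosome genes 9 (69.2%), against 50.4% of all genes. Higher by at least 0.32 were 1 (10%), 2 (11.1%) and 1 (7.69%) of these lists, against 1.55% of all genes. PLAU, the urokinase gene of matrix proteolysis, read 11.54, 11.04 and 11.45 on the control, WT and delta72 arrays, with 3 probe sets from 0.26 to 0.47. HMOX1, haem oxygenase 1 and an NRF2 target, read 7.03, 6.68 and 7.07, with 3 probe sets from 0.24 to 0.58. ULK1, the kinase that starts autophagy, differed by 0.36. The histone genes H2BC21 and H2BC4 differed by 0.36 each, on probe sets that near-identical histone genes may share, and the list of 8 histone genes had 5 higher and 3 lower. Secretory translocation and vesicle coat genes had 24 of 36 higher with a median of 0.03, and NAPA, which disassembles membrane fusion complexes, was lower at -0.53 on its brightest probe set but at -0.14 in the median over its probe sets.

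Probe sets of a gene can share probes or targets, so their agreement describes the same RNA and is no replicate. Among the 7163 genes with more than 1 probe set past the filter, 18 had every probe set higher by at least 0.32 with delta72 (0.251%) and 10 every probe set lower by at least 0.32 (0.14%). Of the 18, HILPDA, NDRG1, ERO1A, ADM, BNIP3, ALDOC and KDM3A stand on the hypoxia lists, and DDIT3, HERPUD1 and PDIA4 on the ER and integrated stress lists. The others included GPRC5A, an orphan receptor of epithelia, at 10.57, 10.11 and 10.72 on the control, WT and delta72 arrays, and EFNA1, the ephrin A1 ligand, at 9.62, 9.32 and 9.78. PTPRR, a phosphatase of MAP kinases, read 8.04, 8.13 and 8.61, and SYTL2, which tethers secretory vesicles, read 5.98, 6.85 and 7.29. SEMA4B, a membrane semaphorin, differed by 0.36 and RASSF1, a tumour suppressor gene, by 0.35. Only 1 of the 18 had a mean level under 7.

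The 10 genes lower on every probe set were dimmer, with 6 under a mean level of 7. TAF15, an RNA-binding protein of the FET family, read 9.66, 9.92 and 9.49 on the control, WT and delta72 arrays, with a difference of -0.43. COX3, a mitochondrially encoded cytochrome oxidase subunit, read 12.80, 12.97 and 12.60, with probe sets at -0.37 and -0.41. The mitochondrially encoded ND1 and ND4, looked up after the values of COX3 were seen, differed by -0.13 and -0.03. ALPP, the placental alkaline phosphatase gene, read 9.29, 8.82 and 8.45, and its near-identical relatives may share its probes. RABGAP1L, a Rab GTPase activating protein gene, was the lowest gene of all at 5.64, 6.02 and 5.24, with probe sets at -0.33 and -0.78. FAM111B, RXYLT1, ABHD15, ATAD2B and KRCC1 differed by -0.33 to -0.42. The 2 probe sets of RXYLT1 held identical values on all 3 arrays, so they count as 1 reading and leave 9 genes on the lower side. Identical probe sets stood in 42 of the 7163 genes and in 0 of the 18 higher ones.

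**Figure D5:**
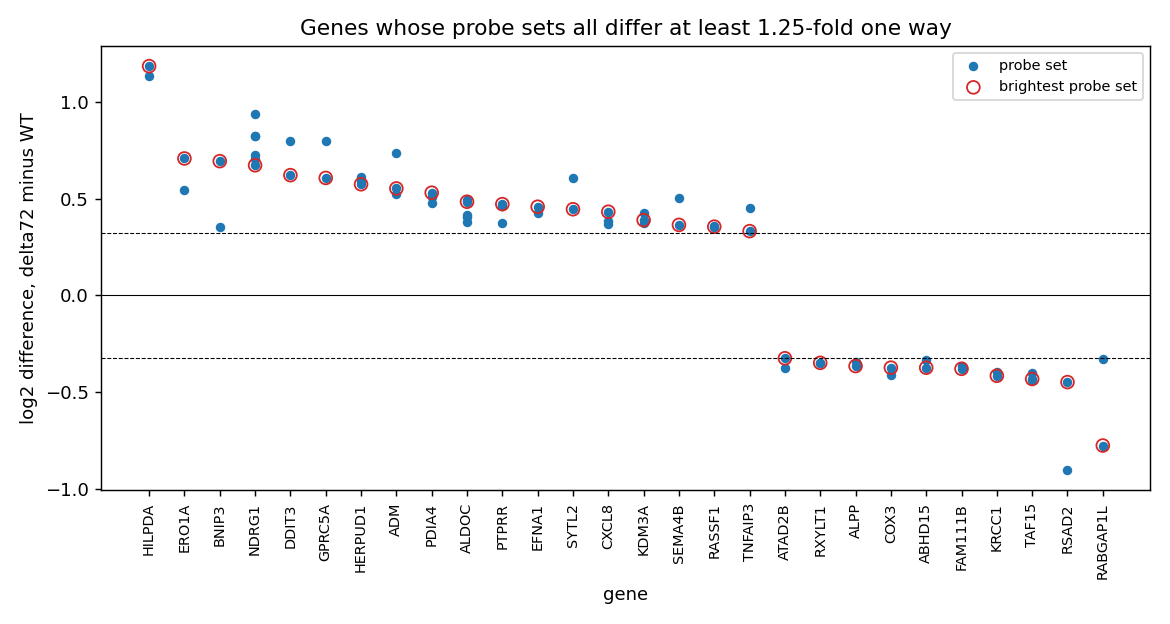
Log2 difference between the delta72 and WT arrays (vertical) of each probe set (points) of the 28 genes whose probe sets all differ by at least 0.32 one way, with the brightest probe set circled and dashed lines at 0.32 either way. The 2 probe sets of HILPDA lie above 1, the 6 of NDRG1 between 0.67 and 0.94, and the 2 of RABGAP1L at -0.33 and -0.78.

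Other genes at the upper end rested on 1 probe set past the filter, on dim values or on probe sets that disagreed in size. TNKS2, a tankyrase that marks proteins for degradation, read 6.73, 6.07 and 6.97 on the control, WT and delta72 arrays, a difference of 0.91. CARD17P, a pseudogene of the caspase 1 locus, read 5.71, 4.63 and 5.52, and KLHL34 5.40, 4.93 and 5.63, so the WT value of each was below the filter level. SAA1, an acute-phase protein gene, read 7.72, 6.88 and 7.51, and has a near-identical neighbour. LCN2, lipocalin 2, read 5.82, 6.18 and 6.75. PER1, a circadian repressor, differed by 0.59 on its brightest probe set with a median of 0.12 over 3, and ARRDC3, an arrestin-domain gene, by 0.56 with a median of 0.32 over 3.

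At the lower end the clearest bright gene was APP, the amyloid precursor protein gene. APP read 10.98 on the control array, 11.40 with WT and 10.88 with delta72, a difference of -0.52, and its 12 probe sets ran from -0.52 to -0.09 with a median of -0.48. ZNF440, a zinc finger gene, read 10.64, 10.93 and 10.47, a difference of -0.46, and NNMT, which methylates nicotinamide, read 8.02, 8.37 and 7.93, a difference of -0.44. PRMT6, an arginine methyltransferase of histones, read 7.31, 8.32 and 7.87, with 3 probe sets from -0.44 to -0.18. In APP, ZNF440 and NNMT the WT array was the high one, and delta72 lay below control.

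ITGB8, an integrin subunit that activates TGF-beta, read 7.83, 7.66 and 7.15 on the control, WT and delta72 arrays. The difference was -0.51 on its 1 probe set past the filter. TADA2A, an adaptor of histone acetyltransferases, read 5.24, 6.13 and 5.46, and ZNRF3, a ubiquitin ligase that removes Wnt receptors, read 5.41, 5.998 and 5.37. CCDC69 differed by -0.73 on one probe set and by 0.06 on the other. Apart from ITGB8 these values lie near the filter level, where the differences of all genes spread most.

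Probe sets paired with several genes or with none were kept out of the comparison. Of 2387 such probe sets past the level filter, 12 were at least 1.5-fold higher with delta72 (0.503%) and 1 lower (0.0419%). Among the 27189 probe sets of single genes the shares were 0.173% and 0.0588%. Of the 12, 7 were paired with several genes, and 5 of these belonged to 1 pair of genes, whose 5 probe sets differed by 0.59 to 1.10 with a median of 0.85. They are not named, because a probe set of a pair does not tell its genes apart.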

How the data were processed

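Total RNA of 3 KYSE150 cultures, 100 ng each, was labelled with biotin for Affymetrix 3-prime arrays, per the labels' protocols. The submitters' processing notes name Affymetrix Expression Console and Partek. Which normalization and background correction they ran is not stated there. A table of log2 values for 49395 probe sets was deposited. The array medians were 5.95 for control, 5.93 for WT and 5.94 for delta72.

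Affymetrix controls (102 probe sets) were set aside. Of the other 49293, 44988 were paired with 1 gene symbol in the platform annotation, 1832 with several and 2473 were not listed, and genes were named from the first kind only. Entrez identifiers of 44961 were found in the RefSeq gene table. Brightest probe sets, the 40th percentile filter, differences and counts at 1.25-fold (log2 0.32), 1.5-fold and 2-fold were computed in Python 3.11.15 with pandas 2.3.3, and the counting was tested on simulated data. With 1 array per condition there is no test, and the number of arrays limits the precision.

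The comparison, its 32 gene lists, 5 marker lists and rules were chosen with earlier results of these data known. Named were the lysyl oxidases, the 30 highest and 30 lowest genes whose median over probe sets had the same sign, up to 20 genes each way with every probe set past 1.25-fold, up to 6 members of each list with the largest difference and any past 1.25-fold, the hypoxia and stress list members, and markers past 1.25-fold. Outside these rules, CD68, CDC6, HSPA1B, HSPA8, ND1, ND4 and PCNA were named after their values were seen. Promoters were RefSeq windows on GRCh38.p14, the first listed for each gene, searched over the 250 bases before the start. The 7 alternatives are described in the closing section.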

Additional observations from a re-analysis of the deposited data

How the results depend on the processing

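Shifting each array to a common median, quantile normalization, a lowess correction against level, the median over probe sets, the choice of the brightest probe set on the WT and delta72 arrays alone, no filter and a 60th percentile filter were tried. Without the filter 519 genes were higher with delta72 by at least 0.32 and 322 lower, and 40 and 16 at 1.5-fold. With the 60th percentile filter 86 were higher by at least 0.32 and 53 lower, and 11 and 0 at 1.5-fold, where fewer genes are counted. With lowess 166 genes were higher by at least 0.32 and 143 lower, so 53.7% of these were higher against 61.3% as deposited, and 8 genes were at least 1.5-fold lower, and the cause was not tested. The 32 list medians moved by less than the pooled probe error of 0.113, a tolerance that exceeds 25 of the medians themselves and so shows little for those. The median changed sign under at least 1 alternative in 4 lists (cholesterol synthesis, mitosis, NRF2 targets, and YAP and TEAD targets), each of a size of 0.03 or less. The medians of the HIF targets ran from 0.26 to 0.30, of the integrated stress genes from 0.17 to 0.25 and of glycolysis from 0.16 to 0.20 over the alternatives. The choice of probe set mattered most for single genes: with the median over probe sets 46 of 335 named genes moved by more than their probe error. A gene with 1 probe set or a pair of them cannot move by this rule, so the share of 46 in 335 does not measure how many depend on the probe set. Of the 190 genes higher by at least 0.32, 135 were shared, and of the 120 lower 84. The 60th percentile filter left out 67 named genes. No paired analysis was possible because each condition had 1 array, and no replicate could be left out. Dim genes limit the reading, since their differences spread most.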
